A study of Mus musculus with 38 samples.

Results

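The 9 genes described here code for proteins with which the vessel wall starts, limits or dissolves a clot: Vwf, Thbd, Procr, Tfpi, F3, Plat, Plau, Plaur and Serpine2. They were taken as the rows of the count table whose Ensembl identifier carries 1 of these symbols in a GRCm39 annotation, which gave 9 of 35682 genes. Counts came from 3′ RNA sequencing of cardiomyocytes (CMs), endothelial cells (ECs) and fibroblasts (FBs) of the mouse heart in 38 libraries, each made from 2 pooled hearts. All mice were male C57BL/6 of 8 to 12 weeks. Sham mice received vehicle (5% DMSO in saline) by gavage for 6 weeks and an open-chest operation without ligation. Control-AMI mice received the same vehicle and then 30 minutes of ligation of the left anterior descending artery and 2 hours of reperfusion. EMPA-Pre-AMI mice received empagliflozin, an inhibitor of the sodium-glucose cotransporter SGLT2, at 10 mg/kg/day in that vehicle for the 6 weeks before the same ischemia and reperfusion. Hearts were taken under heparin in all groups and digested by perfusion, and the part below the suture was then cut off for use. CMs were collected by sedimentation, ECs were sorted as CD45- CD31+ and FBs as CD45- CD31- CD90+. Sham, Control-AMI and EMPA-Pre-AMI held 4, 5 and 4 libraries of CMs, 4, 4 and 5 of ECs and 4, 4 and 4 of FBs.

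Clotting in a vessel begins when tissue factor, the product of F3, meets factor VII of the plasma, and is held back by tissue factor pathway inhibitor (Tfpi), by thrombomodulin (Thbd) and the endothelial protein C receptor (Procr), which together switch thrombin from making fibrin to activating protein C, and by protease nexin-1 (Serpine2), a serpin that inhibits thrombin and the plasminogen activators. Von Willebrand factor (Vwf) is stored by ECs and holds platelets to an injured wall. Fibrin is dissolved by plasmin, which tissue plasminogen activator (Plat) and urokinase (Plau) release from plasminogen, urokinase while bound to its receptor on the cell surface (Plaur).

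In GRCm39, Vwf lies on chr6:125523737-125663642 (plus strand), Thbd on chr2:148216045-148250201 (minus), Procr on chr2:155593031-155597397 (plus), Tfpi on chr2:84263195-84307164 (minus) and F3 on chr3:121516610-121528820 (plus). Plat lies on chr8:23247709-23272871 (plus), Plau on chr14:20886722-20893453 (plus), Plaur on chr7:24161875-24175394 (plus) and Serpine2 on chr1:79763323-79839144 (minus). The canonical transcript of Thbd has 1 exon, and the others have between 4 (Procr) and 52 (Vwf). Thbd was the only one of the 9 with another annotated gene across its span, Sstr4 on the opposite strand; whether counting used strand is not given in the sources used here, so reads of that pair could be shared. Their Ensembl identifiers are ENSMUSG00000001930 (Vwf), ENSMUSG00000074743 (Thbd), ENSMUSG00000027611 (Procr), ENSMUSG00000027082 (Tfpi), ENSMUSG00000028128 (F3), ENSMUSG00000031538 (Plat), ENSMUSG00000021822 (Plau), ENSMUSG00000046223 (Plaur) and ENSMUSG00000026249 (Serpine2).

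The 250 bases before the canonical transcription start were read from the GRCm39 genome on each gene's own strand. They are printed for the 2 genes whose counts changed with condition in ECs (Plaur and Serpine2) and for the 2 that stood highest in ECs among the Sham populations (Vwf and Thbd). Plaur is chr7:24161625-24161874 (plus), Serpine2 is chr1:79836414-79836663 (minus), Vwf is chr6:125529661-125529910 (plus) and Thbd is chr2:148250109-148250358 (minus). Capitals mark matches to 3 motifs searched on both strands, which are TGANTCA of AP-1, ACGTG of the hypoxia response and CACCC bound by Krüppel-like factors.
Plaur: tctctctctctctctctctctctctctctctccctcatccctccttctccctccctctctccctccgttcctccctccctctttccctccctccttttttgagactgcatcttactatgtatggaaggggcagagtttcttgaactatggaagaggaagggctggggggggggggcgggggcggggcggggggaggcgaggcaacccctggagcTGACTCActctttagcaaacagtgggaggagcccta
Serpine2: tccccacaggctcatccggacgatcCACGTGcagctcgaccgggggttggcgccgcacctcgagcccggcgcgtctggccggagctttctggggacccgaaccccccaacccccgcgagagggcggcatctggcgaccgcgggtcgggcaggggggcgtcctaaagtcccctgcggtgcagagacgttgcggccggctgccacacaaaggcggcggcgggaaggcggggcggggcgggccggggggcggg
Vwf: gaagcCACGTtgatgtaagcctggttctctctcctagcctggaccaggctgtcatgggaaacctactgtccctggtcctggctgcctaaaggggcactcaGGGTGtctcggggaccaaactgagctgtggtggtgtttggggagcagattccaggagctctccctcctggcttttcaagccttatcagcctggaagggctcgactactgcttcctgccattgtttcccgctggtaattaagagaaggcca
Thbd: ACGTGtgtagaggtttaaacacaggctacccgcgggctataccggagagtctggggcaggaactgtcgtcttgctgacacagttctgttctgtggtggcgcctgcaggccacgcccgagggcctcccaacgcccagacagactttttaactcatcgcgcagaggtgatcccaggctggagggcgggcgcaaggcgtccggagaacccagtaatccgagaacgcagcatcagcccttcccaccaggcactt
Plaur held TGANTCA at -36 from the start. Serpine2 held ACGTG on both strands, at -225 and -224, where the 2 matches overlap. Vwf held ACGTG at -245 and CACCC at -150, both on the strand opposite to the gene, and Thbd held ACGTG at -250. Over the 9 genes, TGANTCA was found in 3 (Procr, F3 and Plaur), ACGTG in 4 (Vwf, Thbd, Tfpi and Serpine2) and CACCC in 4 (Vwf, Procr, F3 and Plat). The same motifs were found in 6.17%, 17% and 52.9% of 21770 promoters of that length, so that each match is only a description of these windows.

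Counts per library ranged from 2031726 to 4509305 in CMs, 1352528 to 2195319 in ECs and 1946070 to 2821386 in FBs. Transcripts of mitochondrial DNA took 46.6% to 66% of the counts in CMs against 3.47% to 14.6% in the other populations. Levels are given as CPM, which are counts scaled to library size after correction by TMM (trimmed mean of M-values) factors. The scaling was done among the libraries of a population for comparisons of conditions and among all 38 libraries for comparisons of populations. In Sham library 1, Tfpi was at 21.4 CPM in CMs and 41.3 CPM in ECs by the first scaling. It was at 48.9 and 25.5 CPM by the second, so levels between populations depend on these factors. The labels carry sample-sheet numbers, from which 4 lists (1 to 8, 9 to 23, 25 to 34 and 37 to 67) were inferred here. What a list stands for is not given in the labels. The study's methods state that all samples were prepared and sequenced at the same time. Lists 1 to 4 hold 5, 9, 6 and 18 libraries. Sham ECs came from lists 2 and 3, Sham FBs from lists 1 and 4 and all Sham CMs from list 4. For Sham ECs against FBs or against CMs, list and population cannot be told apart. Sham FBs and CMs share list 4 through FB library 1 alone. Each population had its own markers. In Sham libraries the summed CPM of 10 endothelial genes (Pecam1 and Cdh5 among them) was 8653 to 9769 in ECs against 105.7 to 472 in FBs and 1504 to 2082 in CMs. The sum of 10 fibroblast genes was 13093 to 18482 in FBs against 416 to 1097 in ECs and 2439 to 3558 in CMs, and that of 9 cardiomyocyte genes was 64233 to 76048 in CMs against 283 to 1056 in ECs. Because each library is a bulk sample, fewer cells of a type and less RNA per cell cannot be told apart. Replicates are libraries of separately labelled heart pools, and p-values measure the spread between them. Per the study's methods, ECs and FBs were sorted from the supernatant left when CMs had settled, so libraries of different populations can come from the same hearts. Which ones do is not recorded in the labels, and the fit across populations treated them as independent.

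**Figure D1:**
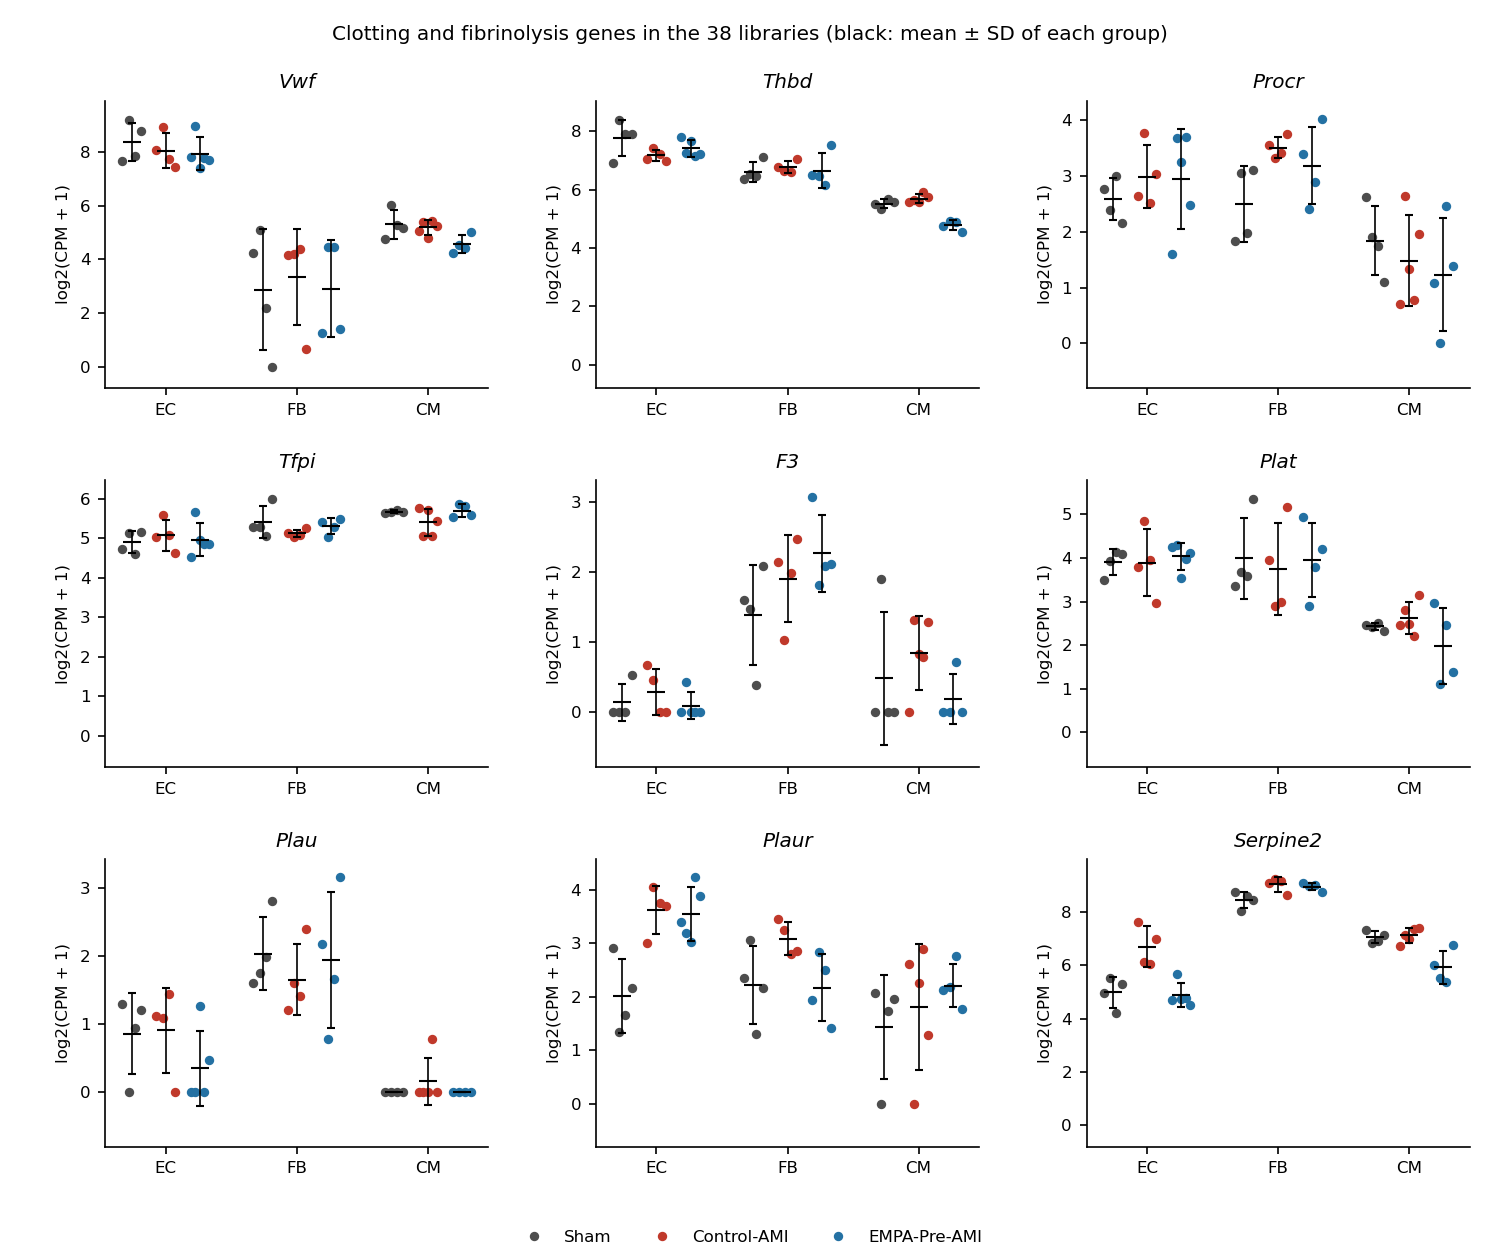
Each panel gives 1 gene as log2(CPM + 1), scaled over all 38 libraries, against the population; points are libraries, and black bars are the mean ± SD of a group. Vwf and Thbd stood highest in ECs and Serpine2 in FBs, and in ECs the 4 Control-AMI libraries stood above Sham for Plaur and Serpine2.

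The first comparison asked where these genes were expressed in hearts without ischemia, and it found a different order of the populations for different genes. Vwf and Thbd were highest in ECs, Serpine2 was highest in FBs, and F3 and Plau were near the limit of detection outside FBs. Between Sham ECs and Sham FBs, 2 of the 9 genes were higher and 2 lower in ECs at a false discovery rate (FDR, the Benjamini-Hochberg-adjusted p of edgeR's quasi-likelihood test) below 0.05, where 37.7% of 12085 genes passed (17.6% higher and 20.2% lower). The median log2 difference of the 9 genes was -0.34, against -0.04 over all genes tested.

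Vwf, the platelet-binding protein that marks endothelium, was at 204, 575, 231 and 441 CPM in the 4 Sham EC libraries (38-library scale) and at 17.6, 32.99, 3.54 and 0 CPM in the 4 Sham FB libraries. The Sham CM libraries held 25.7, 64.5, 37.5 and 35.0 CPM. No EC library overlapped the other populations, whereas FBs spanned the range from no count to the level of CMs. Vwf was 27.05-fold higher in ECs than in FBs (log2 difference 4.76, SE 0.80, FDR 1.30e-05) and 8.86-fold higher than in CMs (log2 difference 3.15, SE 0.74, FDR 0.000695). With sample-sheet list added to the model the difference from FBs was 3.36 on the log2 scale and did not pass (FDR 0.0528). FBs and CMs did not differ beyond their spread (log2 difference -1.61, SE 0.76, FDR 0.0818), although without Sham FB library 2 the difference was -2.53 and passed (FDR 0.0157).

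Thbd, which binds thrombin on the luminal surface, was at 119, 332, 240 and 239 CPM in Sham ECs, at 80.9, 91.9, 87.7 and 138 CPM in Sham FBs and at 45, 39.4, 50.05 and 46.5 CPM in Sham CMs. The populations fell in the order ECs, FBs, CMs, and only the lowest EC library (119) lay within the range of FBs. Every step of that order passed: 2.34-fold from FBs to ECs (log2 difference 1.22, SE 0.24, FDR 4.62e-05) and 2.20-fold from CMs to FBs (log2 difference 1.14, SE 0.25, FDR 0.000210).

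Serpine2 showed another order, with FBs highest and ECs lowest. It was at 434, 266, 385 and 353 CPM in Sham FBs, at 159, 113, 120 and 142 CPM in Sham CMs and at 29.9, 45.4, 17.5 and 38.7 CPM in Sham ECs, and no 2 populations overlapped. ECs differed from FBs by -3.45 on the log2 scale (SE 0.32, FDR 3.02e-11) and from CMs by -2.02 (SE 0.31, FDR 8.63e-07), and FBs were 2.69-fold higher than CMs (log2 difference 1.43, SE 0.30, FDR 0.000127). The fibroblast sum had the same order (13093 to 18482, 2439 to 3558 and 416 to 1097 CPM), and Serpine2 amounted to 3.97% to 4.76% of it in Sham CMs and 4.14% to 5.66% in Sham ECs. The part of fibroblast RNA in the CM and EC levels was not tested.

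The remaining inhibitor and receptor genes differed less. Tfpi averaged 49.9 ± 1.22 CPM (SD, n = 4) in Sham CMs, 42.6 ± 13.5 in FBs and 29.4 ± 5.79 in ECs. Its only difference that passed was between ECs and CMs, with ECs lower by 0.77 on the log2 scale (SE 0.23, FDR 0.00507); ECs against FBs gave -0.54 (SE 0.22, FDR 0.0536), which passed without EC library 2, EC library 4, FB library 1 or FB library 3, at -0.65 to -0.60. Procr averaged 5.16 ± 1.60 CPM in ECs, 5.12 ± 2.74 in FBs and 2.84 ± 1.68 in CMs, and Plaur 3.43 ± 2.25, 4.10 ± 2.45 and 2.11 ± 1.45 in the same order. None of the Procr or Plaur differences exceeded the spread between libraries (FDR 0.208 to 0.984).

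The plasminogen activators and tissue factor were expressed at low levels. Plat averaged 14.3 ± 2.88 CPM in ECs, 18.0 ± 14.7 in FBs and 4.40 ± 0.283 in CMs, and was higher than in CMs by 1.69 (SE 0.55, FDR 0.00963) in ECs and by 2.03 (SE 0.54, FDR 0.00216) in FBs on the log2 scale; with that list term these differences were 0.32 (FDR 0.696) and 0.96 (FDR 0.123). Plau was not counted in any Sham CM library, gave 0 to 4 counts in Sham ECs and 8 to 26 in Sham FBs, and was at least 1.42-fold higher in FBs than the level that 3 counts would give in the smallest CM library. Plau also passed for ECs against CMs (FDR 0.0463), at a level under that limit, and did not pass with the list term (FDR 0.176) or when CM library 1, 2, 3 or 4 or EC library 1, 3 or 4 was left out (FDR 0.0625 to 0.0851). F3 gave at most 1 count in Sham ECs and 1 to 14 in Sham FBs, at least 1.41-fold lower in ECs (FDR 0.00400). In Sham CMs, 5 counts of F3 in library 2 were the only ones; without that library FBs passed as higher than CMs (FDR 0.00891).

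Against Sham CMs, Sham ECs had 4 of the 9 genes higher (Vwf, Thbd, Plat and Plau) and 2 lower (Tfpi and Serpine2), where 52.9% of all genes passed (24.8% higher and 28.1% lower), and Sham FBs had 4 higher (Thbd, Plat, Plau and Serpine2) and none lower, where 47.3% passed (22.7% higher and 24.5% lower). The medians of the 9 log2 differences were 0.87 and 1.14, against 0.04 and 0.09 over all genes.

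**Figure D2:**
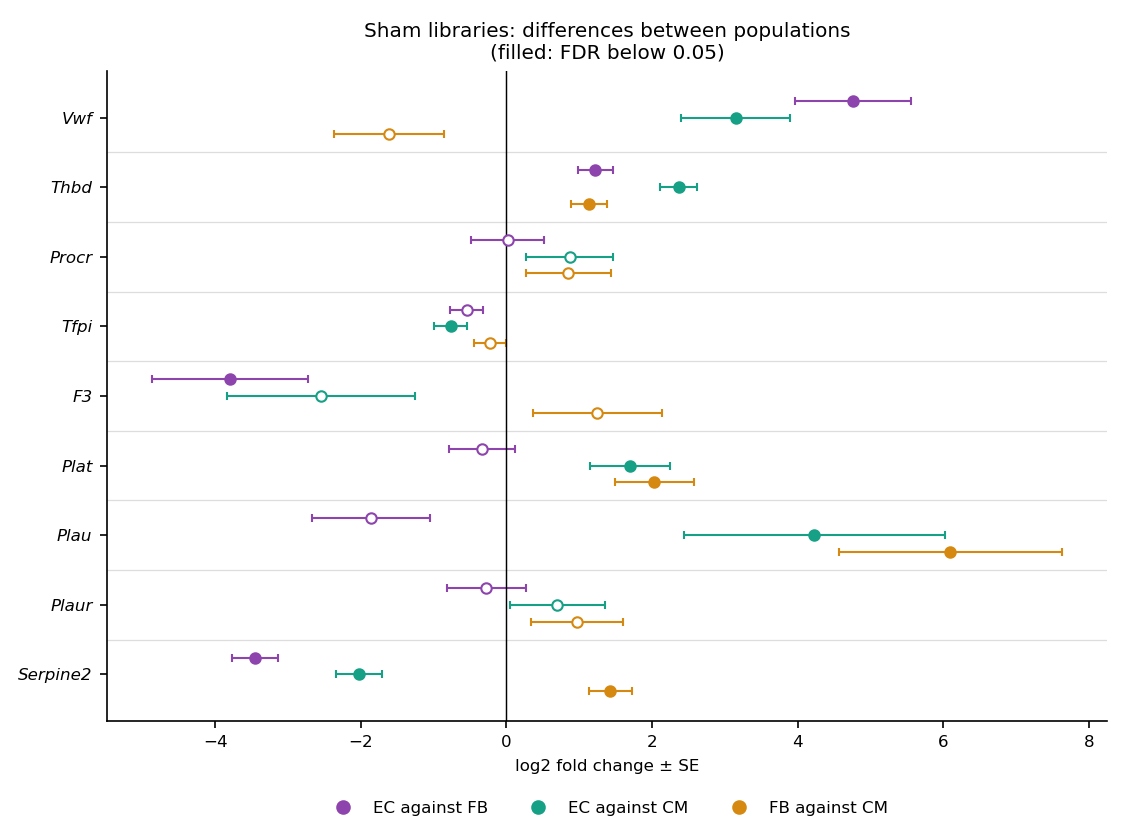
Log2 differences (± SE) of the 9 genes between Sham populations, with filled points at an FDR below 0.05. Vwf lies furthest to the right for ECs against FBs, at 4.76, and Serpine2 lies at -3.45; points for Plau against CMs, where no count was found, depend on the offset of the fit and are no measure of size.

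The comparison of Control-AMI with Sham asked what ischemia and 2 hours of reperfusion changed. In ECs, Plaur and Serpine2 rose and Thbd, Vwf, Procr, Tfpi and Plat did not pass. F3 and Plau, with at most 4 counts in any EC library, were not tested. These 2 of 7 tested genes passed where 6.56% of 10438 genes did (4.09% higher), and their groups were also the only 2 of the 7 that did not overlap, where 11.3% of genes did not. The median log2 fold change of the 7 genes was 0.18, against -0.02 over all genes tested.

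Plaur, the urokinase receptor, was at 10.6, 2.38, 3.41 and 5.55 CPM in the Sham EC libraries (18, 5, 7 and 8 counts). Control-AMI held 10.9, 24.5, 19.4 and 18.7 CPM (24, 42, 29 and 30 counts), and EMPA-Pre-AMI held 15.1, 12.98, 11.3, 28.4 and 21.5 CPM (28, 24, 20, 46 and 36 counts). The 9 libraries with ischemia all stood above the 4 Sham libraries, the nearest (Control-AMI library 1) by less than 1 CPM, and the 2 groups with ischemia overlapped. Plaur was 3.38-fold higher in Control-AMI than in Sham (log2 fold change 1.76, SE 0.43, FDR 0.0157) and 3.29-fold higher in EMPA-Pre-AMI (1.72 against Sham, SE 0.42, FDR 0.0222). Between EMPA-Pre-AMI and Control-AMI the log2 fold change was -0.04 (SE 0.37, FDR 0.984). With at most 18 counts in a Sham library the calls rested on single libraries. Control-AMI against Sham did not pass without Sham library 2 (1.4995, FDR 0.0522) or Sham library 3 (1.59, FDR 0.0633), and passed with the list term, with libraries of list 2 alone and without both list 4 libraries of Control-AMI. Summed leukocyte and platelet markers were also higher in Control-AMI ECs. The summed CPM of 10 leukocyte genes was 12.2 to 27.7 in Sham ECs and 31.3, 50.8, 640 and 59.1 in Control-AMI libraries 1 to 4. EMPA-Pre-AMI libraries 1 to 5 held 20.5, 17.3, 47.5, 77.8 and 142. The summed CPM of 7 platelet genes was 6.66 to 17.1 in Sham, 25.5 to 108 in Control-AMI and 12.4 to 29.4 in EMPA-Pre-AMI. Both sums stood higher in Control-AMI than in Sham without overlap, and in EMPA-Pre-AMI both overlapped Sham. All 10 leukocyte genes were found in every group, and of the platelet genes Gp9 was at 0 in all Sham ECs and Gp1ba in all other ECs. The part of blood cell RNA in the Plaur values was not tested.

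The comparison of EMPA-Pre-AMI with Sham in ECs shares its Sham libraries with the one before. It called Plaur alone among the 7 genes, where 2.71% of genes passed (2.08% higher), and Plaur alone did not overlap, where 6.56% of genes did not. This call was lost without Sham library 2 (1.44, FDR 0.107), Sham library 3 (1.53, FDR 0.107), Sham library 4 (1.73, FDR 0.0671), EMPA-Pre-AMI library 4 (1.49, FDR 0.0841) or EMPA-Pre-AMI library 5 (1.64, FDR 0.0560). Over the libraries of list 2 alone the log2 fold change was 1.81 (FDR 0.0512).

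Serpine2, the thrombin and plasminogen activator inhibitor, was at 48.4, 70.8, 27.7 and 61.8 CPM in Sham ECs, at 312, 108, 102 and 199 CPM in Control-AMI ECs and at 39.3, 80.0, 41.3, 42.0 and 34.7 CPM in EMPA-Pre-AMI ECs. The Control-AMI libraries lay above both other groups without overlap, and Sham and EMPA-Pre-AMI overlapped. Control-AMI was 3.47-fold higher than Sham (log2 fold change 1.79, SE 0.41, FDR 0.0207). EMPA-Pre-AMI was lower than Control-AMI by 1.92 on the log2 scale (SE 0.38, FDR 0.0175), the only one of the 7 genes called in that comparison, where 2.63% of genes passed (2.28% lower) and where Serpine2 alone did not overlap, as did 4.21% of genes. EMPA-Pre-AMI against Sham gave -0.13 (SE 0.39, FDR 0.919).

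Serpine2 moved in ECs together with genes of fibroblasts. The summed CPM of the 10 fibroblast genes was 660 to 1710 in Sham ECs, 8648, 2332, 2570 and 4817 in Control-AMI libraries 1 to 4, and 586 to 1168 in EMPA-Pre-AMI ECs. None of the 10 genes was at 0 in all libraries of a group, and of the 9 tested 8 were higher in Control-AMI than in Sham and 9 were lower in EMPA-Pre-AMI than in Control-AMI. The endothelial sum was 13490 to 15512 in Sham, 7120 to 9847 in Control-AMI and 9732 to 14779 in EMPA-Pre-AMI. Serpine2 amounted to 4.14% to 5.66% of the fibroblast sum in Sham ECs, 3.60% to 4.63% in Control-AMI ECs and 4.39% to 7.17% in EMPA-Pre-AMI ECs. In FBs it amounted to 1.91% to 3.03% in Sham, 2.58% to 4.10% in Control-AMI and 2.55% to 4.12% in EMPA-Pre-AMI. The ranges of this share overlapped between all EC groups, whereas those of Serpine2 itself overlapped only between Sham and EMPA-Pre-AMI. The part of fibroblast RNA in the Serpine2 difference was not tested.

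The 2 Control-AMI libraries with the highest Serpine2 (1 and 4) were those of list 4, which held no Sham or EMPA-Pre-AMI ECs. Without both, Serpine2 did not pass for Control-AMI against Sham (log2 fold change 1.03, FDR 0.116) or for EMPA-Pre-AMI against Control-AMI (-1.17, FDR 0.178). With the list term the values were 0.93 (FDR 0.214) and -1.02 (FDR 0.523), and in list 2 alone 0.99 (FDR 0.2403) and -0.99 (FDR 0.879). Leaving out single libraries gave 1.40 to 2.00 and -2.20 to -1.54. The first call was lost without Sham library 1 (FDR 0.0514), Sham library 3 (FDR 0.0527) or Control-AMI library 4 (FDR 0.0569), and the second without Control-AMI library 4 (FDR 0.0578) or EMPA-Pre-AMI library 1 (FDR 0.0588), 3 (FDR 0.0563), 4 (FDR 0.0575) or 5 (FDR 0.0562). For Plaur the lowest Control-AMI value, 10.9 CPM, was in the library with the highest fibroblast sum.

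**Figure D3:**
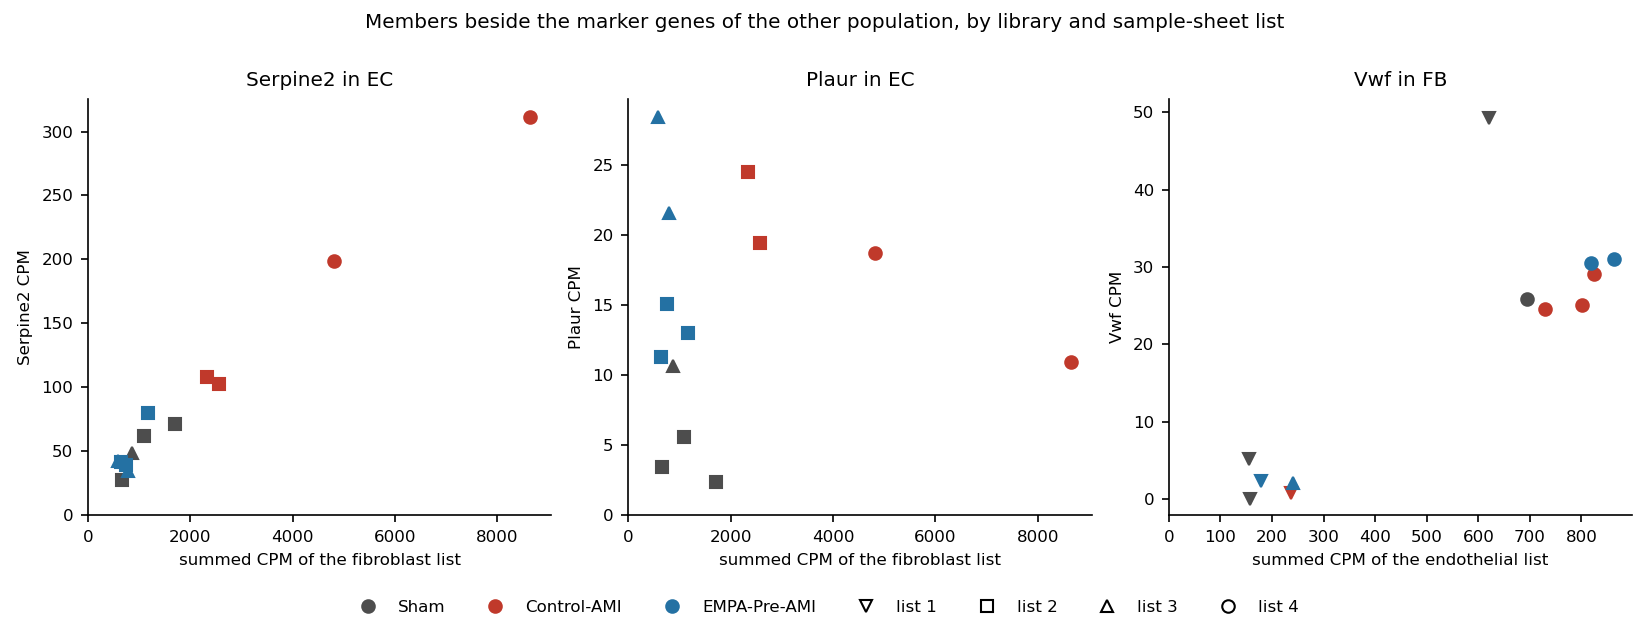
CPM of Serpine2 and Plaur in ECs against the summed CPM of the fibroblast genes, and of Vwf in FBs against that of the endothelial genes; each point is a library, coloured by condition and shaped by sample-sheet list. Serpine2 was highest, at 312 and 199 CPM, in the 2 Control-AMI libraries with fibroblast sums of 8648 and 4817, and Vwf was under 6 CPM in the 5 FB libraries with endothelial sums of 156 to 240.

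The anticoagulant receptor Thbd was at 192, 518, 382 and 382 CPM in Sham ECs, at 208, 267, 232 and 197 CPM in Control-AMI ECs and at 355, 241, 321, 226 and 236 CPM in EMPA-Pre-AMI ECs. Of the Sham libraries 3 stood above all Control-AMI libraries, and Sham library 1, the only one of list 3, stood below them. The log2 fold change from Sham to Control-AMI was -0.71 (SE 0.23, FDR 0.0759), which did not pass. It passed without Sham library 1 (-0.92, FDR 0.00484) and with no filter on low counts (-0.69, FDR 0.0426), and EMPA-Pre-AMI against Sham, -0.42 (SE 0.22, FDR 0.401), also passed without Sham library 1 (-0.63, FDR 0.0440). EMPA-Pre-AMI against Control-AMI gave 0.29 (SE 0.22, FDR 0.690). The endothelial sum moved in the same direction, and Thbd amounted to 1.24% to 3.84% of it in Sham, 2.17% to 2.92% in Control-AMI and 1.70% to 2.48% in EMPA-Pre-AMI. The part of the endothelial share in these values was not tested.

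Vwf was at 329, 897, 366 and 704 CPM in Sham ECs, at 416, 765, 334 and 267 CPM in Control-AMI ECs and at 356, 800, 271, 351 and 324 CPM in EMPA-Pre-AMI ECs. Each group held 1 or 2 libraries at 704 to 897 CPM beside others at 267 to 416, and the 3 groups overlapped. The summed CPM of 4 endocardial genes, all found in each EC group, set apart the same libraries, with 909 and 762 in Sham libraries 2 and 4, 978 in Control-AMI library 2 and 782 in EMPA-Pre-AMI library 2 against 197 to 502 in the others. Its part in the Vwf values was not tested. The log2 fold change was -0.37 (SE 0.46, FDR 0.730) for Control-AMI against Sham and -0.08 (SE 0.44, FDR 0.975) for EMPA-Pre-AMI against Control-AMI. For Procr, Tfpi and Plat, the 3 comparisons gave values between -0.08 and 0.58 with FDR of 0.610 to 0.979, so that differences of these genes were not detectable beyond the spread between libraries. Tfpi averaged 46.6 ± 8.91 CPM (SD, n = 4) in Sham ECs, 52.6 ± 15.3 (n = 4) in Control-AMI ECs and 49.8 ± 17.0 (n = 5) in EMPA-Pre-AMI ECs. Procr averaged 8.21 ± 2.57, 11.6 ± 5.71 and 12.4 ± 7.09 CPM, and Plat 22.7 ± 4.47, 24.1 ± 13.7 and 24.9 ± 5.06 CPM, in the same order.

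**Figure D4:**
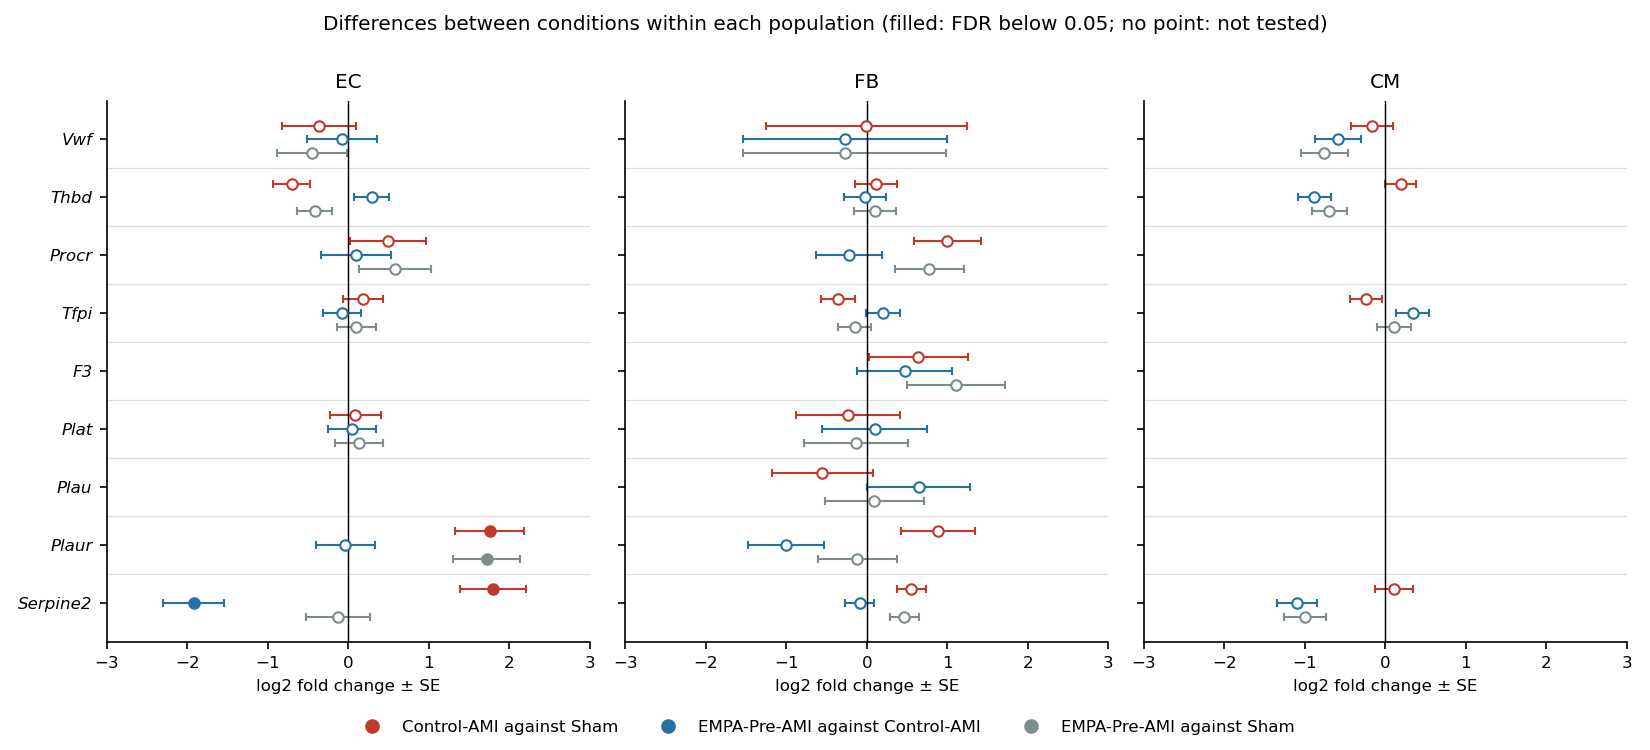
Log2 fold changes (± SE) between conditions in ECs, FBs and CMs, with filled points at an FDR below 0.05 and no point where a gene was not tested. The 4 filled points are all in ECs, for Plaur at 1.76 and 1.72 and for Serpine2 at 1.79 and -1.92.

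In FBs all 9 genes were tested and none passed in any of the 3 comparisons of conditions. The first, Control-AMI against Sham, called 4.16% of 10691 genes. The second, of EMPA-Pre-AMI with Sham, called 5.11%, whereas the comparison of both groups with ischemia called 0 genes at an FDR below 0.05 and 170 at an unadjusted p below 0.05. At an unadjusted p below 0.05, 2, 1 and 1 of the 9 genes were found in the comparisons in that order, where 19.2%, 20.8% and 1.59% of all genes were. DESeq2 called 1 of the 9 in the first of these (Serpine2, FDR 0.0355) and 0 in the others.

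Serpine2, which is abundant in FBs, was at 639, 397, 565 and 523 CPM in Sham, at 803, 887, 841 and 584 CPM in Control-AMI and at 795, 736, 764 and 633 CPM in EMPA-Pre-AMI. In both groups with ischemia 3 libraries stood above all Sham libraries and 1 did not (library 4, of list 1). The log2 fold change was 0.55 (SE 0.18, FDR 0.0965) for Control-AMI against Sham, which passed without Control-AMI library 4 (0.67, FDR 0.0375), and 0.46 (SE 0.18, FDR 0.153) for EMPA-Pre-AMI against Sham. Over all alternatives the value for Control-AMI against Sham ranged from 0.27 to 0.67. Sham FBs held 3 libraries of list 1 and 1 of list 4, and Control-AMI FBs held 1 and 3, so that condition and list largely go together. The groups with ischemia differed by -0.09 (SE 0.18, FDR 1.00). The fibroblast sum itself was 19557 to 27360 in Sham FBs and 20513 to 22810 in Control-AMI FBs.

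Procr, the receptor that presents protein C to thrombomodulin, was at 3.75, 10.997, 4.34 and 11.3 CPM in Sham FBs and at 15.7, 13.1, 14.0 and 18.1 CPM in Control-AMI FBs. These groups did not overlap, the only such case among the 9 genes in FBs, where 12.3% of all genes did not overlap. The log2 fold change was 1.00 (SE 0.42, FDR 0.197), and with the list term it was 1.56 (FDR 0.0197). EMPA-Pre-AMI FBs, at 14.0, 6.32, 9.49 and 22.4 CPM, spanned both groups. Plaur in FBs was at 6.01, 10.997, 2.17 and 5.12 CPM in Sham, 14.6, 12.4, 8.72 and 9.06 CPM in Control-AMI and 4.15, 8.95, 6.85 and 2.43 CPM in EMPA-Pre-AMI. Control-AMI was the highest group, with overlap of both others, and the log2 fold changes of 0.88 (SE 0.46, FDR 0.308) against Sham and -1.002 (SE 0.47, FDR 1.00) for EMPA-Pre-AMI against Control-AMI did not pass.

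Vwf in FBs separated by library and not by condition. Counts were 69, 112, 12 and 0 in Sham, 64, 67, 60 and 2 in Control-AMI and 4, 59, 58 and 5 in EMPA-Pre-AMI. The 6 libraries of list 4 gave 58 to 69 counts and an endothelial sum of 695 to 863 CPM, Sham library 2 of list 1 gave 112 counts and a sum of 620, and the other 5 gave at most 12 counts and sums of 156 to 240. The part of endothelial RNA in these counts was not tested. The SE of the Vwf log2 fold changes was 1.24 to 1.26, so that only large differences could have been seen.

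Plat, tissue plasminogen activator, showed another split in FBs. It was at 13.5, 17.6, 16.05 and 59.1 CPM in Sham, at 21.1, 9.38, 10.2 and 50.2 CPM in Control-AMI and at 43.6, 9.47, 18.97 and 25.3 CPM in EMPA-Pre-AMI. The high values were in library 4 of Sham and Control-AMI and in libraries 1 and 4 of EMPA-Pre-AMI, none of which was of list 4, and the groups overlapped (FDR 0.878 to 1.00). The same 4 libraries held the lowest Vwf of their groups. Plau was also highest in library 4 of each group, at 8.88, 6.17 and 11.7 CPM against 1.05 to 5.19 CPM in the others, with log2 fold changes of -0.55 to 0.64 (FDR 0.674 to 1.00). F3 averaged 2.71 ± 1.79 CPM in Sham, 4.36 ± 2.12 in Control-AMI FBs and 6.05 ± 3.28 in EMPA-Pre-AMI FBs (SD, n = 4 each) and did not pass (FDR 0.312 to 1.00). Thbd and Tfpi gave log2 fold changes of -0.35 to 0.20 (FDR 0.378 to 1.00).

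In CMs only Vwf, Thbd, Tfpi and Serpine2 were tested, since the other 5 genes gave at most 11 counts in a library. None of the 4 passed in any comparison, where 0.0655% of 9167 genes passed for Control-AMI against Sham, 0.338% for EMPA-Pre-AMI against Sham and 0.0218% for EMPA-Pre-AMI against Control-AMI. At an unadjusted p below 0.05 the counts were 0, 3 and 3 of 4, where 2.72%, 18.2% and 25% of all genes were. DESeq2 called 0, 1 (Serpine2) and 2 (Thbd and Serpine2).

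Thbd in CMs was at 19.7, 17.5, 21.9 and 20.6 CPM in Sham, at 20.0, 22.3, 20.0, 27.7 and 23.6 CPM in Control-AMI and at 11.8, 15.1, 12.7 and 9.85 CPM in EMPA-Pre-AMI. The EMPA-Pre-AMI libraries lay below both other groups without overlap, the only gene of the 4 to do so against Control-AMI (5.97% of genes did not overlap, 3.59% being lower) and 1 of 2, with Serpine2, against Sham (7.88% of genes, 4.44% lower). EMPA-Pre-AMI against Control-AMI gave -0.88 (SE 0.20, FDR 0.0571), which passed without EMPA-Pre-AMI library 1 (-0.87, FDR 0.0440) or 4 (-0.79, FDR 0.0218). EMPA-Pre-AMI against Sham gave -0.69 (SE 0.21, FDR 0.146). The endocardial sum split CMs in the same way, at 9.78 to 16.9 CPM in EMPA-Pre-AMI against 21.9 to 38.4 in Sham and 20.0353 to 35.7 in Control-AMI. The sum of the 10 endothelial genes did not, at 503 to 1356 CPM in EMPA-Pre-AMI, 658 to 924 in Sham and 596 to 1197 in Control-AMI. None of the 3 endocardial genes tested passed (median log2 fold change -1.24 against Control-AMI), 1 of the 4 listed was at 0 in Control-AMI, and their part in the Thbd values was not tested.

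Serpine2 in CMs was at 69.6, 50.2, 52.7 and 62.8 CPM in Sham, at 45.01, 64.3, 54.9, 76.3 and 75.9 CPM in Control-AMI and at 28.8, 23.6, 17.8 and 47.5 CPM in EMPA-Pre-AMI. The highest EMPA-Pre-AMI library, number 4, overlapped Control-AMI and not Sham. The log2 fold change was -1.10 (SE 0.25, FDR 0.0571) against Control-AMI, which passed without library 1 (-1.09, FDR 0.0440) or 4 (-1.45, FDR 0.00162), and -0.99 (SE 0.26, FDR 0.105) against Sham, which passed without library 4 (-1.35, FDR 0.00301). All Sham and Control-AMI CMs were of list 4, whereas EMPA-Pre-AMI libraries 1 to 4 were of lists 3, 2, 3 and 4, so that for most of these libraries condition and list cannot be told apart. The fibroblast sum was 1082 to 1575 in Sham, 885 to 2085 in Control-AMI and 396, 1235, 209 and 1192 in EMPA-Pre-AMI libraries 1 to 4. Within list 4, where EMPA-Pre-AMI is library 4 alone and its spread is taken from the other groups, EMPA-Pre-AMI against Control-AMI gave -1.19 for Thbd and -0.39 for Serpine2 (FDR 0.989 for both). The part of list and of fibroblast RNA in these values was not tested. Vwf gave -0.59 (SE 0.28, FDR 0.200) and Tfpi 0.34 (SE 0.20, FDR 0.303) for EMPA-Pre-AMI against Control-AMI.

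Whether ECs and FBs responded differently was tested as the difference of their log2 fold changes. For EMPA-Pre-AMI against Control-AMI, Serpine2 was the only one of the 9 genes that passed, with ECs lower than FBs by 1.86 (SE 0.40, FDR 0.00508), where 2.04% of 12085 genes passed (2.01% lower). Without EC Control-AMI library 1 the difference was -1.45 and did not pass (FDR 0.0526). For Control-AMI against Sham none of the 9 passed, where 3.22% of genes did. Serpine2 gave 1.25 (SE 0.42, FDR 0.0981), which passed without EC Control-AMI library 2 (1.43, FDR 0.0391) or 3 (1.44, FDR 0.0383), and Thbd gave -0.82 (SE 0.33, FDR 0.220). Plaur, which passed in ECs and not in FBs for Control-AMI against Sham, gave a difference of 0.88 (SE 0.72, FDR 0.722), so that its response was not shown to differ between the populations.

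Another 61 genes of clotting, its inhibitors and fibrinolysis were set beside the 9. In ECs, 7 of 32 tested were higher in Control-AMI than in Sham and none lower, where 6.56% of all genes passed (4.09% higher). F10, coagulation factor X, rose most in this set, from 4.13, 1.43, 1.46 and 0.694 CPM in Sham to 16.3, 26.3, 16.7 and 69.7 CPM in Control-AMI (log2 fold change 4.01, SE 0.57, FDR 0.000663), and it was at 22.6, 19.5, 14.7, 36.5 and 19.2 CPM in EMPA-Pre-AMI (3.495 against Sham, SE 0.56, FDR 0.00134). No Sham EC library held more than 7 counts of F10, so the size of its rise is uncertain. The 9 libraries with ischemia did not overlap Sham, as for Plaur. The leukocyte and platelet sums given beside Plaur lay above all Sham ones in Control-AMI and overlapped Sham in EMPA-Pre-AMI. The 5 leukocyte genes tested had a median log2 fold change of 4.09 for Control-AMI against Sham, none of them passing. The highest leukocyte sum, 640 CPM in Control-AMI library 3, was in a library with F10 at 16.7 CPM, and the part of blood cell RNA in F10 was not tested.

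Thbs1, the matrix protein thrombospondin-1 of platelets and the vessel wall, was higher in Control-AMI than in Sham in both ECs (3.02, SE 0.44, FDR 0.00159) and FBs (3.70, SE 0.28, FDR 3.10e-06). In FBs it averaged 99.3 ± 49.96 CPM in Sham, 1294 ± 237 with ischemia (Control-AMI) and 1224 ± 108 with EMPA before it. Lrp1, the receptor that clears protease-serpin complexes, rose in ECs by 2.84 (SE 0.43, FDR 0.00300) and fell by 3.08 in EMPA-Pre-AMI against Control-AMI (SE 0.41, FDR 0.00310). It has the pattern of Serpine2, at 480, 114, 182 and 336 CPM in Control-AMI ECs against 21.6 to 61.3 CPM in all other ECs, and is 1306 ± 237 CPM in Sham FBs. Unlike Serpine2, Lrp1 still passed in both comparisons without both list 4 libraries. Ptgis, prostacyclin synthase, rose by 1.51 (SE 0.33, FDR 0.0113) and did not pass without those libraries (1.29, FDR 0.102). The fibroblast genes described beside Serpine2 (8 of 9 higher in Control-AMI ECs, 9 of 9 lower in EMPA-Pre-AMI ECs) moved with these genes, which are higher in FBs. Ptgis averaged 28.6 CPM in Sham ECs and 237 in Sham FBs, Serping1 44.1 and 1424, and Thbs1 in Control-AMI 92.5 and 1294. These values and those of Lrp1 are scaled within each population and not over all 38 libraries. Platelet sums also stood higher in Control-AMI ECs, beside Thbs1, and the part of other cells in these values was not tested.

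In EMPA-Pre-AMI against Control-AMI ECs, 3 of the 32 were lower (Lrp1, Serping1 and Ptgis) and none higher, where 2.63% of all genes passed (2.28% lower). Against Sham 3 were higher (F10, Tgm2 and Thbs1) and none lower, where 2.71% passed (2.08% higher). Serping1, the C1 inhibitor, fell by 2.86 (SE 0.52, FDR 0.0148), and without both list 4 libraries it gave -1.84 (FDR 0.0791). Ptgis fell by 1.22 (SE 0.31, FDR 0.0417), a call lost without Sham library 1, Control-AMI library 1, 2 or 4 or EMPA-Pre-AMI library 1, 3, 4 or 5 (FDR 0.0626 to 0.165). Thbs1 rose against Sham by 1.86 (SE 0.43, FDR 0.0319), which did not pass without Sham library 1 (FDR 0.0761), 2 (FDR 0.0659), 3 (FDR 0.128) or 4 (FDR 0.109) or EMPA-Pre-AMI library 5 (FDR 0.0549). Tgm2, transglutaminase 2, rose by 0.87 (SE 0.20, FDR 0.0172), which did not pass without Sham library 3 (FDR 0.0852) or 4 (FDR 0.0730) or EMPA-Pre-AMI library 4 (FDR 0.0560).

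In FBs, where 29 of these genes were tested, Thbs1 and Sdc4 were among those higher than Sham in both groups with ischemia, and none was lower. Sdc4, a heparan sulfate proteoglycan that binds antithrombin, rose by 2.28 in Control-AMI (SE 0.33, FDR 0.00134) and by 2.50 in EMPA-Pre-AMI (SE 0.33, FDR 0.000612). Both comparisons share the Sham libraries. In ECs, Sdc4 was also higher in Control-AMI than in Sham (1.43, SE 0.37, FDR 0.0260). None of the 29 passed for EMPA-Pre-AMI against Control-AMI in FBs, with 0 also at an unadjusted p below 0.05, and none of 26 in any CM comparison, with 2 (Control-AMI against Sham), 6 (against Control-AMI) and 5 (EMPA-Pre-AMI with Sham) at an unadjusted p below 0.05 in edgeR, where 2.72%, 25% and 18.2% of all genes were.

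**Figure D5:**
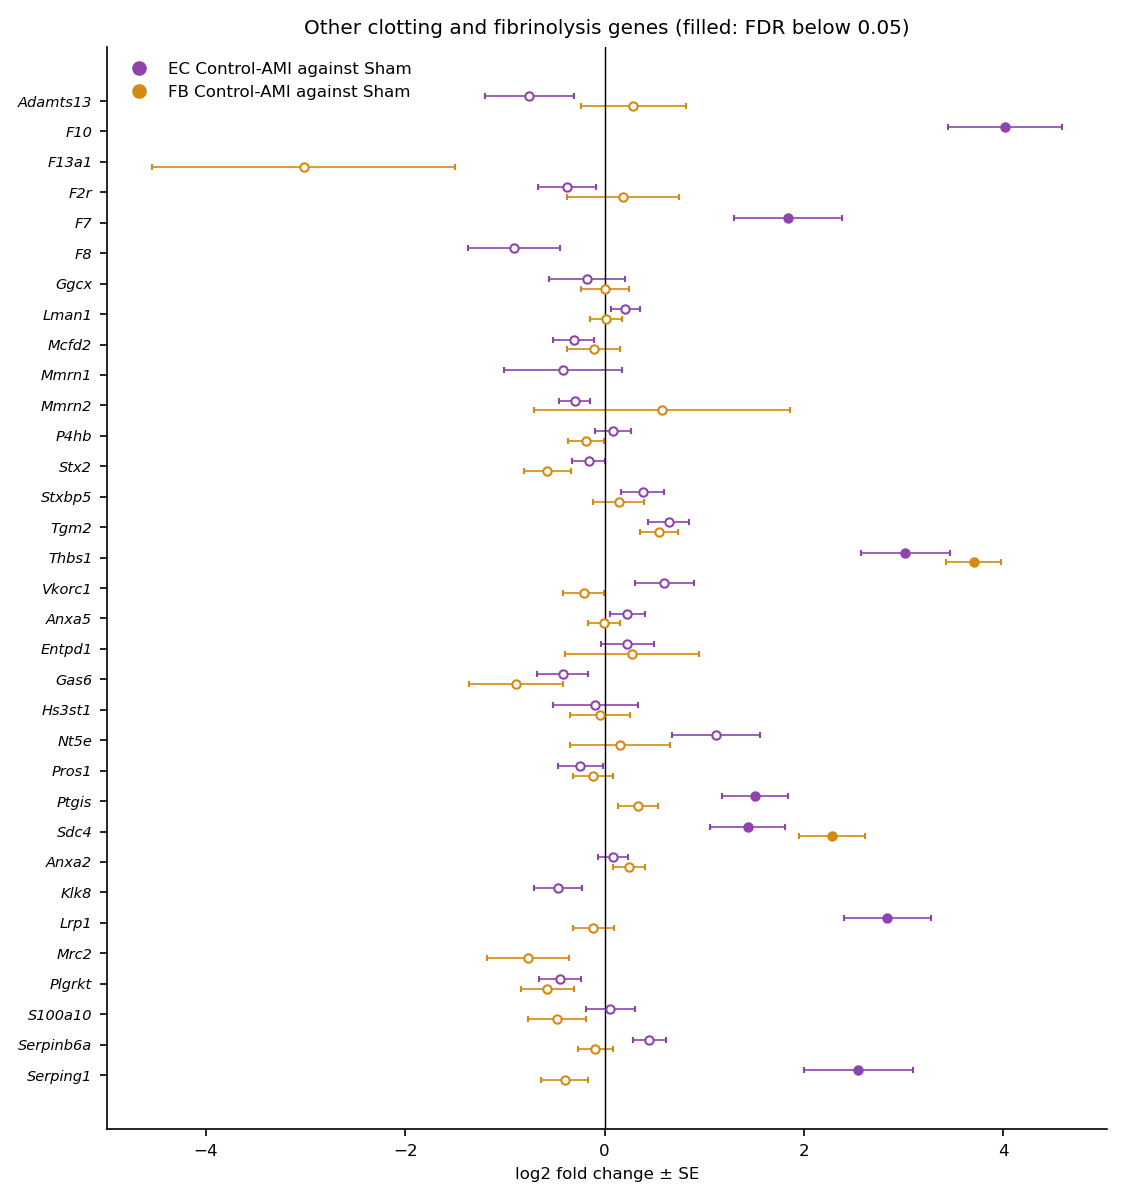
Log2 fold changes (± SE) of other clotting and fibrinolysis genes for Control-AMI against Sham in ECs and FBs, with filled points at an FDR below 0.05. Thbs1 (3.02 and 3.70) and Sdc4 (1.43 and 2.28) are filled in both populations, and F10 in ECs at 4.01; 1 tested gene is not drawn.

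The genes whose log2 CPM ran most like each of the 9 over the 38 libraries were named as a description. These libraries share populations and lists, so that the values mostly follow differences between populations. For Vwf they were Stab1, Emcn and Ptprb (Pearson r 0.98, 0.98 and 0.96), all expressed by endothelium. For Serpine2 they were Axl, Timp2 and Rcn3 (0.98, 0.98 and 0.98). For Thbd, Stat2, Arhgef2 and Tcf12 all reached 0.92. F3 was nearest to Fst, Postn and Itga8 (0.83, 0.83 and 0.82) and Plau to Emilin1, Prdx4 and Tgfbr3 (0.88, 0.86 and 0.85). Plat was nearest to Prrc2b (0.87), Procr to Jak2 (0.83) and Tfpi to Msi2 (0.78). Plaur had the lowest best match of the 9, Il4ra at 0.69.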

How the data were processed

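RNA was sequenced from 38 libraries of cardiomyocytes, ECs and FBs. The authors prepared 3′ libraries, trimmed reads with cutadapt 2.8 and estimated counts per gene with Salmon on GRCm39 and Ensembl 106; the deposited values are these estimated counts, not normalized. They were rounded to whole numbers, which changed 4.55% of values. A 3′ tag does not tell isoforms apart. Between libraries of a group, squared differences averaged 4.66 to 112 times the variance of counting error over 62 pairs.

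Each population was fitted by itself with edgeR 4.0.16 (R 4.3.3, limma 3.58.1): filterByExpr with a minimum of 10, TMM factors, the robust quasi-likelihood test and Benjamini-Hochberg adjustment over all genes tested. Sham populations and EC-FB differences came from 1 fit of all 38 libraries in 9 groups. Lower bounds of folds used a floor of 3 counts in the smallest library of a group, which covers counting error only. Alternatives were DESeq2 1.42.0, RLE factors, no filter, only the groups compared, mitochondrial genes removed, a term for the sample-sheet list, single lists, the replicate number as a block and single libraries left out; leaving out both list 4 Control-AMI EC libraries, and list 1 or 4 alone in FBs or list 4 alone in CMs, were chosen after seeing the data. The code was tested on simulated data. The 9 genes, the 61 other genes (of which at most 4 a comparison, smallest FDR first, are named) and the marker lists were chosen with earlier results of these data known. Symbols were matched for 35407 genes. Replicate numbers do not pair the libraries. Results of 1 gene of the wider list are not reported here.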

Additional observations from a re-analysis of the deposited data

Results flagged for a closer look

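In groups of 4 or 5 libraries, 8 of 73 groups held a library set apart from the others by Dixon's criterion at 95%, which chance gives in about 1 in 20. Vwf was at 799.671 CPM in EMPA-Pre-AMI EC library 2 (271 to 356 in the others) and Serpine2 at 80.0 CPM in the same library (34.7 to 42.0), which also had the highest fibroblast sum of its group, at 1168 CPM, and the highest endocardial sum, at 782 CPM. Vwf was at 0.823 CPM in Control-AMI FB library 4 (24.5 to 29.1), the only library of its group from list 1. Thbd was at 267 CPM in EMPA-Pre-AMI FB library 4 (103 to 131), F3 at 10.9 CPM in EMPA-Pre-AMI FB library 1 (3.68 to 4.86) and Plat at 59.1 CPM in Sham FB library 4 (13.5 to 17.6). Near the limit of detection, F3 was at 1.21 CPM in Sham CM library 2 (5 counts, 0 in the others) and Plau at 2.26 CPM in EMPA-Pre-AMI EC library 3 (4 counts).

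The Serpine2 response to EMPA-Pre-AMI against Control-AMI differed between populations by -1.86 on the log2 scale (ECs minus FBs, edgeR FDR 0.00508), with the fibroblast sums given above moving in the same direction in ECs.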

How the results depend on the processing

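No value changed sign in a call under any of the alternatives: of the recounts of passing genes 264 stayed within 1.5 times and 36 did not, and of single-gene values 70 lost and 28 gained a call, while 2830 stayed on their side of the threshold, called or not. With DESeq2 or with no filter on low counts, 2 genes (Thbd and Serpine2) passed for CM EMPA-Pre-AMI against Control-AMI and 1 (Serpine2) against Sham, and DESeq2 gave 1 (Serpine2) for FB Control-AMI against Sham. In ECs, Control-AMI against Sham kept 1 gene, Plaur, with the list term, in list 2 alone and without both list 4 libraries, and EMPA-Pre-AMI against Control-AMI kept 0 in each of these. EMPA-Pre-AMI against Sham kept 0 in list 2 alone. The list term gave 1 gene for FB Control-AMI against Sham (Procr) and 1 for the EC-FB difference of Control-AMI against Sham (Thbd, -1.01, FDR 0.0439). Replicate numbers were shared between groups, but same-numbered libraries deviated together only weakly (r -0.09 to 0.17 in CMs, -0.06 to 0.21 in ECs and -0.11 to 0.48 in FBs). With the replicate number as a block, EC EMPA-Pre-AMI against Sham kept 0 genes (Plaur 1.61, FDR 0.0645), and Vwf passed for Sham FBs against CMs (-1.79, FDR 0.0397). Leaving out single libraries gave 0 to 2 genes for EC Control-AMI against Sham, EC EMPA-Pre-AMI against Sham and CM EMPA-Pre-AMI against Control-AMI, and 0 to 1 for EC EMPA-Pre-AMI against Control-AMI, CM EMPA-Pre-AMI against Sham, FB Control-AMI against Sham and both EC-FB differences. The cause of these changes was not tested. RLE and TMM factors moved the median of all genes by at most 0.022. Depth limits F3, Plau, Procr and Plaur, with few counts in most libraries, and F10 in Sham ECs.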
